A study of Mus musculus with 27 samples.

Results

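The genes described here encode the enzymes that make purine nucleotides, pyrimidine nucleotides and deoxynucleotides. They are 32 of the 26802 rows of a raw count table of mouse T cell RNA, found by matching each row's Ensembl gene ID to its gene symbol in the GRCm38 annotation. The purine branch has 15 members, the pyrimidine branch 7 and the deoxynucleotide branch 10. The rule that lists them uses no measured value, but they were proposed with earlier results of these data known. All 32 passed the filter on low counts that left 10493 genes for testing.

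The study compared T cells that lack Raptor, a scaffold protein that mTORC1 kinase needs, or Rictor, which mTORC2 needs in its place, with wild-type (WT) cells. WT cells came from B6 mice. Raptor KO cells came from B6 mice with the Cd4-cre transgene and a floxed Rptor gene (B6-CD4-cre;Rptorfl/fl), and Rictor KO cells from B6 mice with the same transgene and a floxed Rictor gene (B6-CD4-cre;Rictorfl/fl). The Cd4 promoter drives Cre while thymocytes carry both CD4 and CD8, so both subsets are targeted, and other cells of these mice keep the gene. CD4+ or CD8+ T cells were purified by magnetic depletion from lymph node and spleen, which were pooled, and live cells were sorted after 48 h of culture. Resting cells were kept in 5 ng/ml of interleukin-7, a survival cytokine. Stimulated cells were kept on plates coated with 10 µg/ml of antibodies to CD3 and CD28, without interleukin-7, so the cultures differ in the cytokine as well as in the antibodies. For WT and for Raptor KO, each subset was sequenced resting and stimulated, and for Rictor KO only stimulated CD8+ cells were, which makes 9 groups of 3 libraries. The age of the mice is not given in the sources used here. Whether the libraries of a group came from separate animals is not stated either, so the p-values describe the spread among these libraries alone, which may be technical.

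A purine ring is built stepwise on phosphoribosyl pyrophosphate until inosine monophosphate (IMP) is reached, which is turned into either AMP or GMP. A pyrimidine ring is built first and joined to ribose afterwards, giving UMP and then the cytidine nucleotides. Ribonucleotide reductase removes the 2′ hydroxyl of the diphosphates and so feeds DNA synthesis, with thymidylate made by a separate enzyme. Resting T cells rely largely on salvage of bases and nucleosides, and dividing T cells are known to need both routes. mTORC1 is known to promote pyrimidine synthesis through phosphorylation of CAD by S6 kinase, and purine synthesis through the transcription factor ATF4 and the mitochondrial folate enzyme MTHFD2. MYC and E2F factors are known to act on many of these genes.

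Stretches of promoter sequence are shown because most members rose together on stimulation and the binding words of MYC, E2F and ATF4 are short enough to look for by letter. RefSeq windows of the GRCm38.p6 assembly, from 250 bases before to 50 bases after each annotated start, were present for 29 of the 32 members, and none was matched for Pfas, Dhodh or Rrm2b. Both strands were searched for the E-box CACGTG, for the E2F words TTCCCGC and TTGGCGC, and for the ATF4 word TGATGNAA. The E-box was in a window of 6 of the 29 members (20.7%), against 8.09% of the 27025 genes with a window and 7.15% of the 32851 windows. An E2F word was in 7 of the 29 (24.1%), against 7.79% of genes and 6.81% of windows. The ATF4 word was in 1 of the 29 (3.45%), against 4.51% of genes and 3.97% of windows. These matches are descriptions of letters, not of binding, and the windows hold only the start regions. Each line below runs 5′ to 3′ on the strand of the gene, and capitals mark the matched word, which for Adss is the reverse complement of TTGGCGC.
Atic E-box, plus strand, chr1:71557137-71557166: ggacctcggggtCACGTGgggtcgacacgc
Paics E-box, plus strand, chr5:76951087-76951116: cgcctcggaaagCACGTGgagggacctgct
Impdh2 E-box, plus strand, chr9:108560314-108560343: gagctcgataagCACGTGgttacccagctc
Tyms E-box, minus strand, chr5:30073669-30073698: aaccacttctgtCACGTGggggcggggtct
Nme1 E-box, minus strand, chr11:93968037-93968066: agcttgatacgcCACGTGggctcgcctttg
Dtymk E-box, minus strand, chr1:93802065-93802094: gtctcgaacttcCACGTGaccagagcctgc
Dtymk E2F, minus strand, chr1:93801989-93802017: agttccgcgagTTGGCGCtcgctaaactg
Rrm1 E2F, plus strand, chr7:102441617-102441645: aggagaactcgTTCCCGCcaggtccgctt
Ppat E2F, minus strand, chr5:76951611-76951639: tgtccccaggcTTCCCGCcgcgcaggcgc
Adss E2F, minus strand, chr1:177796582-177796610: ggcttcggcctGCGCCAAgtgtggtcccg
Prps1 ATF4, plus strand, chrX:140456422-140456451: ggctatctttgTGATGTAAaaagtgcttta

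The E-box words lay 7 bases upstream of the start in Atic, 61 in Tyms, 110 in Impdh2, 148 in Dtymk and 203 in Paics. Nme1 had the word before each of 2 annotated starts, at 29 and 18 bases. The E2F words shown lay 50 bases upstream in Ppat, 67 in Rrm1, 72 in Dtymk and 90 in Adss, and the Prps1 word lay 170 bases upstream. Ppat and Paics, which encode the first purine enzyme and a bifunctional enzyme of the middle steps, lie head to head on opposite strands with overlapping 5′ ends. Their starts are 271 bases apart, their transcripts share 272 bases, and the Paics word shown lies inside the Ppat gene.

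Library totals ran from 8640699 to 16817347 counts, of which the ribosomal precursor Rn45s took 81.12% to 88.4%. Without it 1522199 to 2515583 counts remained, and protein-coding genes held 18.68% to 63.55% of these. The members together had 705 to 10806 counts per library (median 2667), so changes of weakly expressed members are known with less precision. Levels are given as CPM, the counts scaled by the total of the tested genes times edgeR's TMM scaling factor, with Rn45s left out. These factors differed much between libraries. In stimulated WT CD4+ library 3, with 2280104 counts other than Rn45s, 325 Prps1 counts gave 89.4 CPM. In resting Raptor KO CD8+ library 3, with 2198387 such counts, 9 Prps1 counts gave 8.02 CPM. Scaled totals also differed by genotype after stimulation. Over a whole CD4+ group, 3 counts came to 0.404 CPM for WT but 0.564 CPM for Raptor KO. The CD8+ values were 0.378 and 0.53 CPM. Library counts other than Rn45s overlapped, at 1582214 to 2280104 (WT) and 1714908 to 1857683 (Raptor KO) for CD4+. For CD8+ they were 1522199 to 2263964 and 1533156 to 2226346. The scaling lowered stimulated WT levels relative to Raptor KO, and its part in the genotype differences was not tested. All CPM values, and their sums and ratios, carry these factors. Differences are log2 values from edgeR's quasi-likelihood test with their standard error (SE), and a gene is called where the Benjamini-Hochberg adjusted p over all 10493 genes is under 0.05. Cd4 and Cd8a matched the subset labels in each group. Rptor was read in stimulated CD4+ cells at 30.5, 24.5 and 23.9 CPM in WT and at 25.1, 24.1 and 17.0 CPM in Raptor KO, a log2 difference of -0.25 ± 0.2 (adjusted p = 0.427). In stimulated CD8+ cells it was read at 23.3, 28.9 and 18.4 CPM in WT and at 22.6, 17.3 and 19.6 CPM in Raptor KO (-0.23 ± 0.21, adjusted p = 0.51). Rictor was read at 49.7, 48.7 and 36.8 CPM in stimulated WT CD8+ cells and at 38.1, 38.2 and 40.9 CPM in Rictor KO (-0.2 ± 0.16, adjusted p = 0.961). The counts are per whole gene, so they do not check the deletion of the floxed exons.

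Strand was not given for the counting, and some members share bases with other genes. Nme2 and Nme1 share 48.93% and 12.51% of their exon bases with other annotated genes, among them the readthrough gene Gm20390. Gart shares 19.71%, Paics 8.67%, Rrm2b 8.04%, Ppat 6.15% and Umps 6.11%. Values of these genes are uncertain to that extent.

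Members of 1 branch could stand at very different levels at rest. For levels per kilobase, CPM was divided by the merged bases of all annotated exons of a gene. That length can exceed the transcript in use, so ranks between genes are approximate. It is 11012 bases for Rrm1 and 1289 for Hprt. On this scale the highest mean levels in resting WT CD4+ cells were those of Hprt at 14.3 CPM per kb, Dck at 12.3, Adss at 10.2 and Impdh1 at 10.1. Hprt salvages hypoxanthine and guanine, Dck phosphorylates deoxycytidine, Adss starts the AMP branch and Impdh1 the GMP branch. The lowest were Dctd, dCMP deaminase, at 0.136 CPM per kb, thymidylate synthase Tyms at 0.35 and the reductase subunit Rrm2 at 0.53. After stimulation the order differed: Hprt led at 75.4 CPM per kb, followed by Rrm2 at 68.6, Paics at 44.9 and Cad at 34.2, and Rrm2b (0.561), Ctps2 (2.73) and Dhodh (2.86) were lowest. Before division by length, Rrm1 stood at 272 CPM and Hprt at 97.2 CPM in these stimulated cells.

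**Figure D1:**
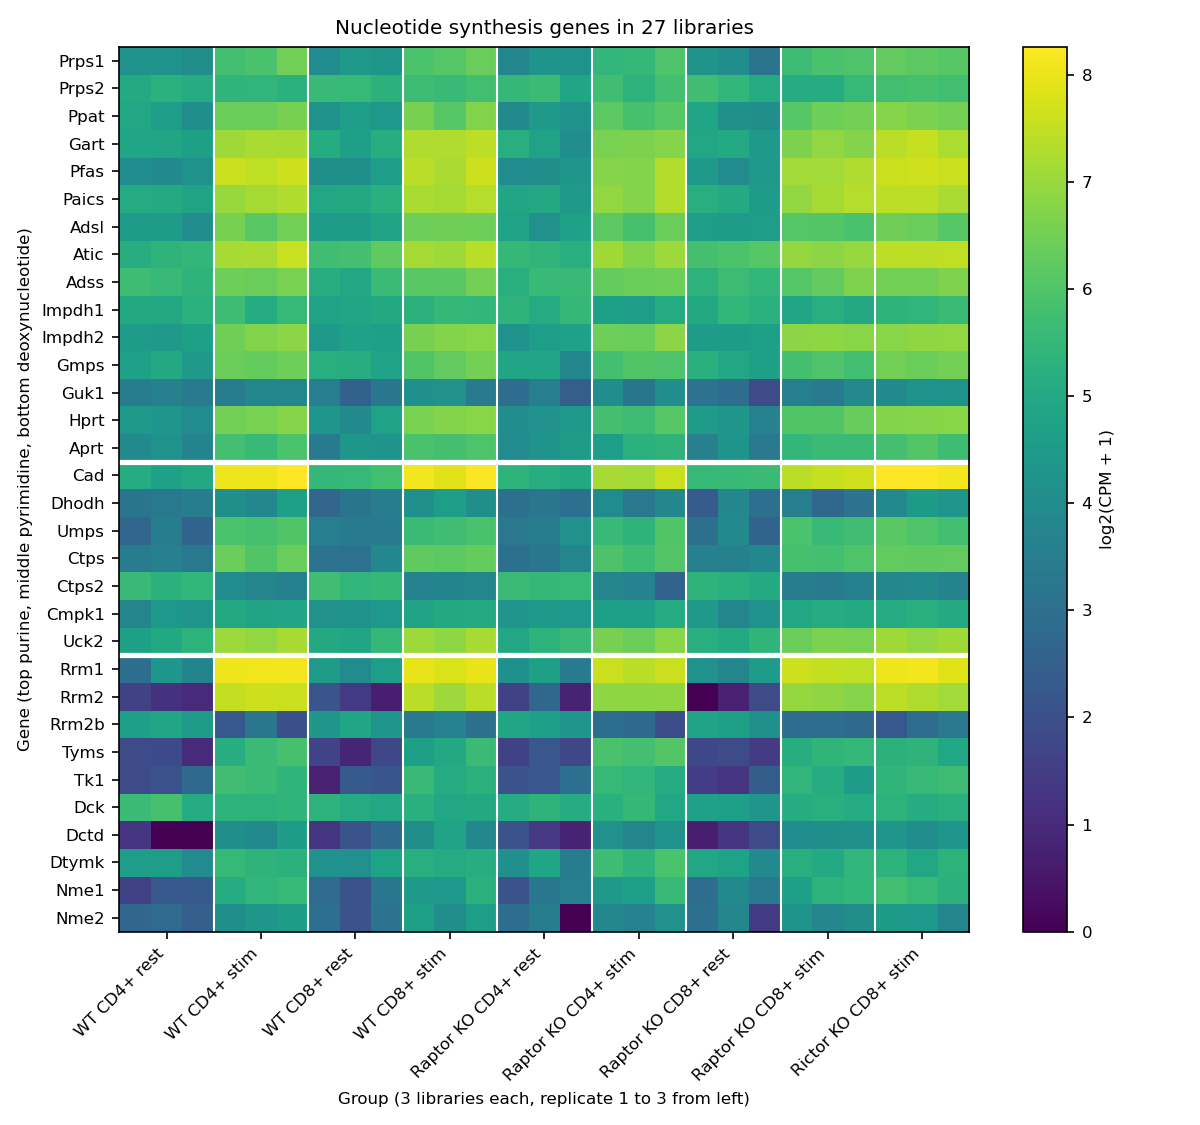
Level of each of the 32 members (rows, in branch order) in each of the 27 libraries (columns, 3 per group), as log2(CPM + 1) on a colour scale from dark (low) to bright (high). Most rows are brighter in the stimulated groups than in the resting ones, and Ctps2 and Rrm2b are darker.

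Most of the module was higher in stimulated than in resting WT cells of both subsets. Of the 32 members, 26 were higher and 2 lower in stimulated than in resting WT CD4+ cells, where 32.4% and 32.5% of all tested genes were called higher and lower. In WT CD8+ cells 28 were higher and 2 lower, against 32% and 30.8% of tested genes. The median log2 difference over the members was 2.02 and 1.92, against -0.03 and 0.0 over all tested genes. Wherever Rn45s was kept in the library totals, the TMM scaling was left out too. That setting shifted the all-gene median up by 0.26 (CD4+) and 0.75 (CD8+). Which of these changes made the shifts was not tested. Over all genes, 3397 higher and 3414 lower then became 3100 and 1933 for CD4+ cells, and 3363 and 3229 became 4519 and 1131 for CD8+ cells. The members' median then stood at 2.34 and 2.71. Cell markers and RNA makeup differed with stimulation too. The 8 B cell markers summed to 103.7 to 109.1 CPM in resting and 23.2 to 33.3 CPM in stimulated WT CD4+ cells, and to 96.4 to 133.9 CPM and 43.9 to 59.1 CPM in CD8+ cells, with Ebf1 and Pax5 at 0 in the resting CD8+ group. The 9 T cell markers, none at 0, summed to 971.8 to 1072.8 CPM and 624.7 to 646.6 CPM in CD4+ cells and to 1321.5 to 1448.0 CPM and 627.9 to 651.9 CPM in CD8+ cells. The 12 myeloid markers summed to 44.5 to 59.6 CPM and 22.7 to 29.0 CPM in CD4+ cells and to 41.9 to 61.0 CPM and 46.5 to 60.2 CPM in CD8+ cells. The 7 NK and gamma-delta T cell markers summed to 14.6 to 26.2 CPM and 8.43 to 16.2 CPM, and to 24.6 to 28.1 CPM and 19.3 to 26.6 CPM. The protein-coding share of the counts other than Rn45s was 27.55% to 45.15% at rest and 38.92% to 63.55% after stimulation in CD4+ cells, and 24.2% to 32.96% and 49.86% to 62.53% in CD8+ cells. The part of these in the stimulation differences was not tested.

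In the purine branch 12 of 15 members rose in CD4+ cells and 14 of 15 in CD8+ cells, and none fell.

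The steps from phosphoribosyl pyrophosphate to IMP rose throughout. Pfas, which makes the amidine intermediate, had the largest purine difference: it was read at 15.3, 14.2 and 18.0 CPM in resting and at 194, 175 and 199 CPM in stimulated WT CD4+ cells. In CD8+ cells it went from 16.3, 16.4 and 23.8 CPM to 170.0, 149 and 198 CPM. The groups were far apart in both subsets, with log2 differences of 3.57 ± 0.18 and 3.18 ± 0.18. Gart, a trifunctional enzyme of the early steps, rose by 2.4 ± 0.17 and 2.36 ± 0.17 on the log2 scale. Paics rose by 2.2 ± 0.17 in each subset, and Ppat, the committed step, by 1.94 ± 0.19 and 2.14 ± 0.2. Adsl, which cleaves adenylosuccinate-type intermediates, rose by 2.08 ± 0.18 and 1.84 ± 0.18. Atic, which closes the ring, rose by 2.01 ± 0.15 in CD4+ and 1.28 ± 0.15 in CD8+ cells.

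Among the enzymes that lead from IMP to AMP and GMP, Impdh2 rose by 2.15 in CD4+ and 2.12 in CD8+ cells on the log2 scale. Gmps, which makes GMP, rose by 1.7 ± 0.18 and 1.28 ± 0.18, and Adss by 0.95 ± 0.16 and 1.02 ± 0.17. Guk1, guanylate kinase, differed by 0.24 ± 0.31 in CD4+ cells, which was not called (adjusted p = 0.508), and rose by 0.78 ± 0.33 in CD8+ cells (adjusted p = 0.0358). That CD8+ call ended when any of 4 single libraries was left out. The salvage enzymes rose in both subsets, Hprt by 2.42 ± 0.18 and 2.35 ± 0.18 and Aprt, which salvages adenine, by 1.87 ± 0.22 and 1.89 ± 0.22.

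Among the pyrimidine enzymes 6 of 7 rose and 1 fell in each WT subset. Cad (chromosome 5, 31054780 to 31078479, plus strand) carries the first 3 activities of the pathway on a single chain. It was read at 33.4, 25.8 and 30.8 CPM in resting and 267, 265 and 306 CPM in stimulated WT CD4+ cells, and at 44.0, 45.2 and 53.7 CPM and 279, 234 and 296 CPM in CD8+ cells. No resting library came near a stimulated one, and the log2 differences were 3.22 ± 0.15 and 2.5 ± 0.15. Umps, which makes UMP, rose by 3.12 ± 0.25 and 2.39 ± 0.24. Dhodh (chromosome 8, 109591343 to 109608673, minus strand), the mitochondrial step between them, rose by 1.0 ± 0.31 in CD4+ cells (adjusted p = 0.0042) and 1.17 ± 0.32 in CD8+ cells (adjusted p = 0.00174). Without stimulated WT CD4+ library 3 the CD4+ call ended (adjusted p = 0.0959). Uck2, which salvages uridine and cytidine, rose by 2.02 ± 0.17 and 1.92 ± 0.17, and Cmpk1, a kinase of UMP and CMP, by 0.74 ± 0.2 and 0.72 ± 0.2.

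The deoxynucleotide branch held the largest changes, with 8 of 10 members higher and 1 lower in each WT subset. Rrm2 (chromosome 12, 24708241 to 24714146, plus strand) encodes the small subunit of ribonucleotide reductase that cycles with S phase. It was read at 2.09, 1.29 and 1.03 CPM in resting and 180.0, 198 and 192 CPM in stimulated WT CD4+ cells, a log2 difference of 7.0 ± 0.32 or 128-fold. In CD8+ cells it went from 3.55, 1.64 and 0.61 CPM to 168, 133 and 169 CPM (6.34 ± 0.32, 80.8-fold). The resting libraries together held 7 Rrm2 counts in CD4+ and 8 in CD8+ cells, so both folds are imprecise. Its large partner Rrm1 rose by 4.39 ± 0.24 and 3.56 ± 0.23 on the log2 scale. Tyms, thymidylate synthase, rose by 4.51 ± 0.34 and 4.2 ± 0.37, and thymidine kinase Tk1 by 3.44 ± 0.3 and 3.8 ± 0.34. Dtymk, the next kinase, rose by 1.01 ± 0.24 and 0.75 ± 0.25. Nme1, a nucleoside diphosphate kinase, rose by 3.55 ± 0.43 and 2.12 ± 0.41, and its neighbour Nme2 by 1.84 ± 0.43 and 1.78 ± 0.43. Dck did not pass the test in either subset, with 48.7, 57.4 and 33.4 CPM at rest and 39.6, 39.7 and 41.8 CPM after stimulation in CD4+ cells (-0.19 ± 0.17, adjusted p = 0.351).

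Dctd had only 2 counts over the 3 resting WT CD4+ libraries, against 139 over the stimulated ones. The ratio of its scaled counts was 46.2, with a 95% counting interval of 12.6 to 385. In CD8+ cells it rose by 2.25 ± 0.4 on the log2 scale.

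**Figure D2:**
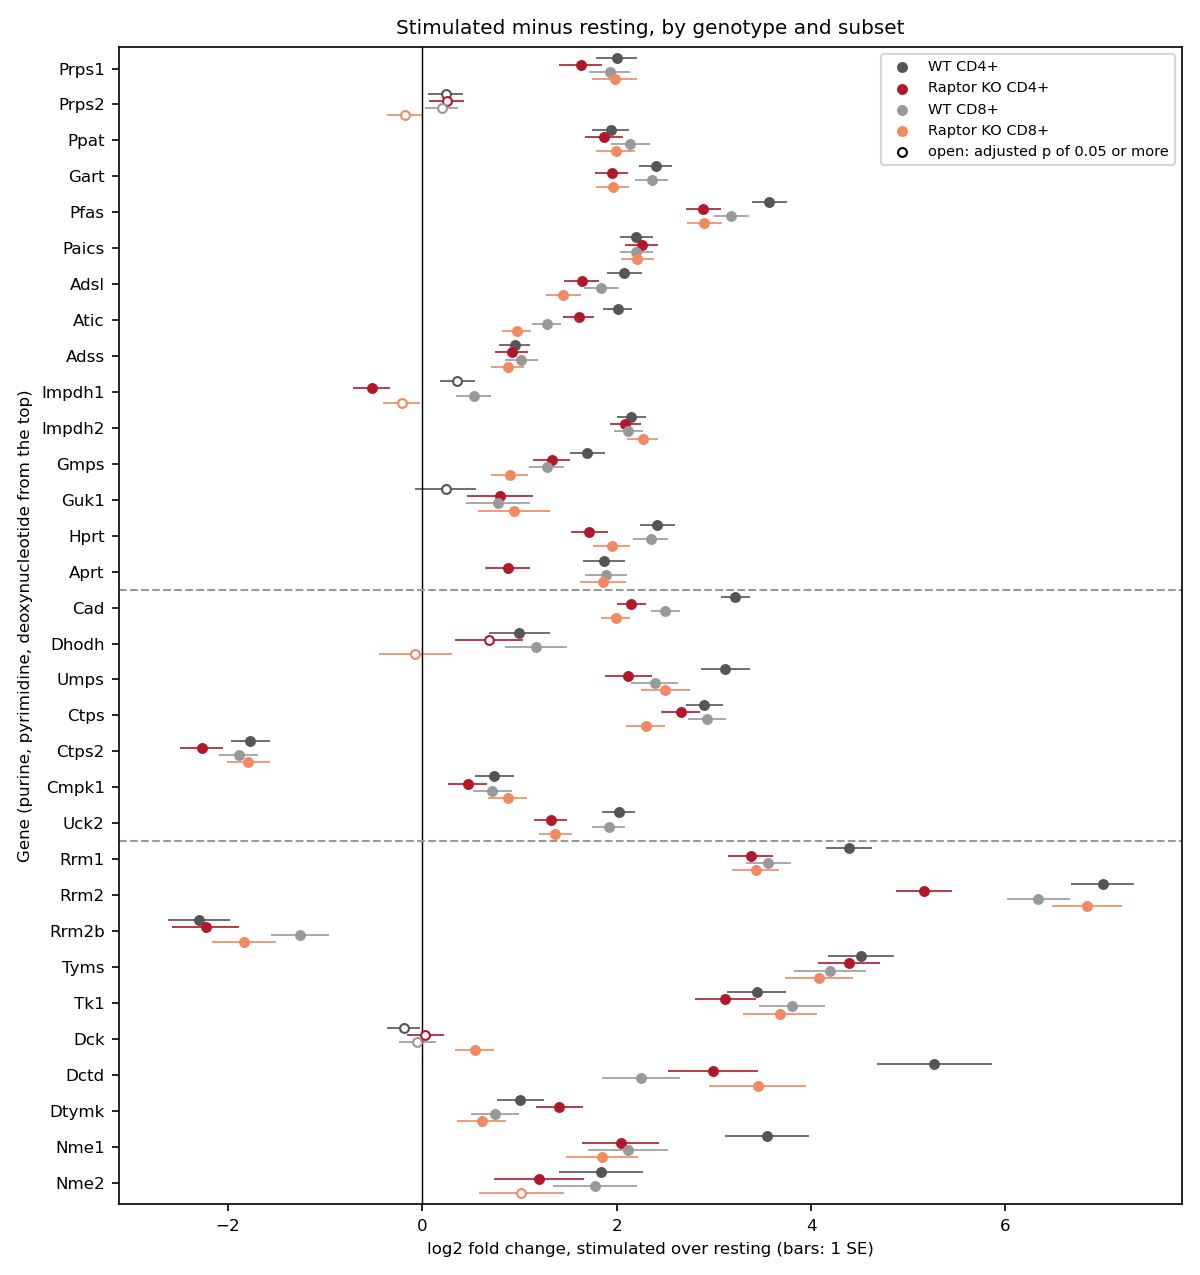
Stimulated minus resting log2 difference (horizontal axis) for each member (vertical axis) in WT and Raptor KO cells of each subset, with bars of 1 SE, filled points where the adjusted p was under 0.05 and open points elsewhere. Rrm2 lies farthest right in each series, between 5.16 and 7.0, and Ctps2 and Rrm2b lie left of zero in each.

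In 4 pairs of related enzymes the balance after stimulation lay further towards 1 partner. In another pair, Nme1 and Nme2, the Nme1 share was 17.6% ± 6.07 (SD, n = 3) at rest and 42.2% ± 0.582 after stimulation in WT CD4+ cells. It was 25.8% ± 1.72 and 30.0% ± 6.96 in WT CD8+ cells, where the libraries overlap. Ctps and Ctps2 both make CTP from UTP. Ctps rose by 2.9 ± 0.19 and 2.93 ± 0.2 in WT CD4+ and CD8+ cells and Ctps2 fell, with log2 differences of -1.77 ± 0.2 and -1.89 ± 0.2. In CD4+ cells Ctps2 was read at 46.6, 38.7 and 43.7 CPM at rest and 14.9, 12.5 and 11.3 CPM after stimulation. Ctps made up a mean of 25.4% ± 2.97 (SD, n = 3) of the pair per kilobase at rest and 89.3% ± 1.77 after stimulation. In CD8+ cells these shares were 22.5% ± 6.85 and 89.6% ± 0.449.

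The reductase small subunits changed places in the same way. Rrm2b, which supplies deoxynucleotides outside S phase and for mitochondrial DNA, fell from 24.3, 27.8 and 22.1 CPM to 3.89, 8.47 and 3.03 CPM in WT CD4+ cells (-2.3 ± 0.32) and had a difference of -1.26 ± 0.3 in CD8+ cells. With Rn45s in the totals the CD8+ difference of Rrm2b was -0.5 and not called (adjusted p = 0.347). The Rrm2 share of the pair was 16.2% ± 5.04 at rest and 99.2% ± 0.422 after stimulation in CD4+ cells, and 20.8% ± 14.4 and 98.1% ± 0.673 in CD8+ cells. The resting shares rest on 32 to 45 counts of the pair per library. Rrm2 itself had 3, 2 and 2 of them in CD4+ and 5, 2 and 1 in CD8+ cells.

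Impdh1 and Impdh2 both oxidise IMP on the way to GMP. Impdh2 rose by 2.15 ± 0.15 and 2.12 ± 0.15, and Impdh1 differed by 0.36 ± 0.18 in CD4+ cells (adjusted p = 0.0672, or 0.0428 with median-ratio size factors) and rose by 0.53 ± 0.18 in CD8+ cells (adjusted p = 0.0106). The Impdh1 share was 57.8% ± 1.13 at rest and 28.7% ± 6.04 after stimulation in CD4+ cells, and 53.5% ± 2.5 and 27.8% ± 0.564 in CD8+ cells. Prps1 and Prps2 make phosphoribosyl pyrophosphate. Prps1 rose by 2.0 ± 0.21 and 1.93 ± 0.21, and Prps2 did not pass the test (0.24 ± 0.18 and 0.2 ± 0.17). For CD4+ cells the Prps1 share went from 49.3% ± 1.8 to 75.5% ± 5.9. It went from 44.8% ± 5.83 to 72.9% ± 2.51 for CD8+ cells. These shares are descriptions with no test, and their level depends on the merged exon lengths of each pair.

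**Figure D3:**
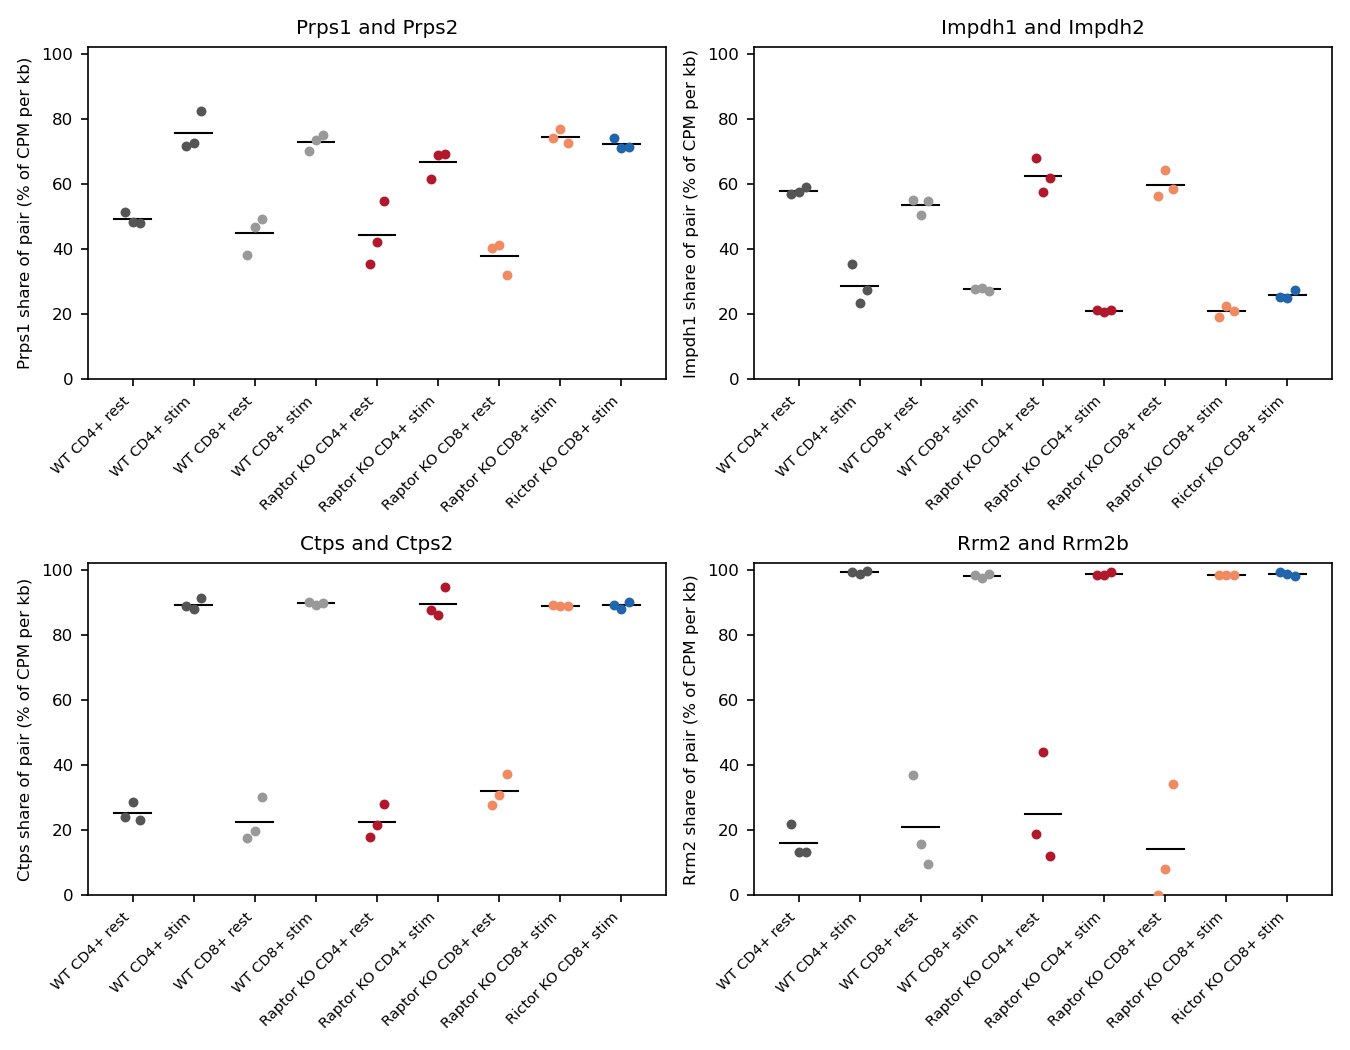
Share of the first-named gene in each of 4 pairs, as a percent of the pair's summed CPM per kilobase, by group, with a point per library and a line at the group mean. In the resting groups the mean Ctps share is between 22.5% and 31.9% and in the stimulated groups between 88.8% and 89.6%, and the Impdh1 share moves the other way.

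Stimulated Raptor KO cells also had higher levels of most members than resting ones. In stimulated against resting Raptor KO CD4+ cells 26 members were higher and 3 lower (27.9% and 24.1% of tested genes), with a median of 1.64 against 0.04 over all genes. In Raptor KO CD8+ cells 26 were higher and 2 lower (29.5% and 26.0%), with a median of 1.86 against 0.03. Of the 26 members that rose in WT CD4+ cells, 25 also rose in Raptor KO and Dhodh did not pass the test (0.69 ± 0.35, adjusted p = 0.0945). Of the 28 that rose in WT CD8+ cells, 25 also rose by edgeR's test, and Impdh1 (-0.21 ± 0.19) and Dhodh (-0.07 ± 0.38) did not pass. Nme2 missed the threshold with edgeR (1.02 ± 0.44, adjusted p = 0.0509) and was called higher by DESeq2 (adjusted p = 0.0324), with no filter (0.00674) and with Rn45s kept (0.0248). Keeping Rn45s without TMM scaling shifted the all-gene median by -0.13 for Raptor KO CD4+ and 0.29 for Raptor KO CD8+ cells. Over all genes, 2924 higher and 2529 lower became 1566 and 1723 in the CD4+ comparison, and 3099 and 2733 became 2786 and 1232 in the CD8+ comparison. The stimulation difference was smaller in Raptor KO for 24 of the 26 and for 20 of the 28. Picking members by their call in WT favours a smaller value in Raptor KO, so these counts are no test. Over all 32 members it was smaller for 26 and larger for 6 in CD4+ cells, and for 22 and 9 in CD8+ cells. The third member that fell in Raptor KO CD4+ cells was Impdh1, at 40.7, 33.2 and 44.6 CPM at rest and 25.1, 23.4 and 32.6 CPM after stimulation (-0.52 ± 0.19, adjusted p = 0.0195), and this call ended without any of 4 single libraries.

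Compared directly with stimulated WT cells, Raptor KO cells had part of the module called lower and no member called higher. In stimulated CD4+ cells 10 of 32 members were lower and 0 higher, against 8.56% and 8.82% of tested genes called lower and higher, and the members' median was -0.38 against 0.04 over all genes. In stimulated CD8+ cells 6 were lower and 0 higher, against 5.42% and 6.3%, with a median of -0.32 against 0.03. At an unadjusted p under 0.05 the counts higher were also 0 in both subsets, and DESeq2 and limma-voom gave 0 as well. The sign of the difference was negative for 27 members in CD4+ and 25 in CD8+ cells. The calls depended on single libraries: without stimulated WT CD4+ library 3, or Raptor KO library 1 or 2, 6, 5 and 6 members remained called in CD4+ cells, and without stimulated WT library 3 the CD8+ count was 2. In bulk RNA, fewer expressing cells and less RNA per cell cannot be told apart.

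Keeping Rn45s in the totals without TMM scaling shifted the all-gene median down by 0.5 (CD4+) and 0.52 (CD8+). The members' medians became -0.9 and -0.86. Over all genes, 925 higher and 898 lower became 64 and 613 for CD4+ cells, and 661 and 569 became 54 and 405 for CD8+ cells. Of the members, 4 (Aprt, Cad, Hprt, Rrm2) and 1 (Dhodh) stayed called. None of the calls held against a minimum fold change of 1.5. The protein-coding share of the counts other than Rn45s was 38.92% to 63.55% in stimulated WT and 33.43% to 46.47% in Raptor KO CD4+ cells, and 49.86% to 62.53% and 31.8% to 47.83% in CD8+ cells. When only protein-coding genes entered the fit, 12 and 8 members were lower.

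Other cell types were read through their markers. The 12 myeloid markers summed to 22.7 to 29.0 CPM in stimulated WT and 45.6 to 54.3 CPM in Raptor KO CD4+ cells, with 7 and 6 of the 12 at 0 counts, Itgam, Adgre1 and Fcer1g among them in both groups. In CD8+ cells the sums were 46.5 to 60.2 CPM and 63.8 to 72.5 CPM, with 6 and 3 at 0, Itgam, S100a8 and S100a9 among them in both. The 8 B cell markers summed to 23.2 to 33.3 CPM and 26.8 to 40.0 CPM in CD4+ cells and to 43.9 to 59.1 CPM and 43.5 to 49.7 CPM in CD8+ cells. The 7 markers of NK and gamma-delta T cells summed to 8.43 to 16.2 CPM and 6.61 to 21.1 CPM in CD4+ cells and to 19.3 to 26.6 CPM and 38.4 to 61.7 CPM in CD8+ cells. The 9 T cell markers summed to 624.7 to 646.6 CPM and 676.7 to 737.5 CPM in CD4+ cells and to 627.9 to 651.9 CPM and 569.2 to 611.2 CPM in CD8+ cells. Of the tested markers, Ctss, a cathepsin of myeloid cells, was called higher in Raptor KO CD4+ cells (1.29 ± 0.24, adjusted p = 0.000181) and Eomes, a factor of NK and memory CD8+ cells, in Raptor KO CD8+ cells (1.11 ± 0.31, adjusted p = 0.0129). The part of these cells in the differences was not tested.

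In the purine branch 6 of 15 members were lower in stimulated Raptor KO CD4+ cells and 3 of 15 in CD8+ cells. Hprt was read at 88.9, 95.8 and 107 CPM in WT and 55.8, 50.3 and 68.5 CPM in Raptor KO CD4+ cells, and at 97.0, 105 and 110.0 CPM and 64.5, 64.3 and 80.4 CPM in CD8+ cells. The groups did not overlap in either subset, and the log2 differences were -0.74 ± 0.16 (adjusted p = 0.000804) and -0.57 ± 0.15 (adjusted p = 0.0111). Gart was read at 136, 146 and 143 CPM against 96.3, 97.2 and 108 CPM in CD4+ cells (-0.5 ± 0.15, adjusted p = 0.0184). The CD8+ values were 155, 153 and 174 CPM against 98.8, 120.0 and 106 CPM (-0.57 ± 0.15, adjusted p = 0.00957). These 2 genes were called in both subsets, again with no overlap. Without stimulated WT library 3 the CD8+ calls of both ended, that of Hprt also without Raptor KO library 2 (adjusted p up to 0.062), and the CD4+ call of Gart ended without WT library 2 or Raptor KO library 1 or 2 (up to 0.0717).

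The other 4 purine calls in CD4+ cells were Aprt (-0.67 ± 0.19, adjusted p = 0.0124), Impdh1 (-0.66 ± 0.18, adjusted p = 0.00752), Pfas (-0.61 ± 0.15, adjusted p = 0.00293) and Gmps (-0.46 ± 0.17, adjusted p = 0.0468). Pfas was at 194, 175 and 199 CPM in WT and 107, 104 and 159 CPM in Raptor KO, and Impdh1 at 51.2, 33.9 and 45.4 CPM and 25.1, 23.4 and 32.6 CPM. In both genes every Raptor KO library was below every WT library. The Gmps call ended without any 1 of the 6 libraries compared (adjusted p up to 0.185), and the Aprt call without WT library 3 or Raptor KO library 1 (up to 0.139). In CD8+ cells the third call was Adsl, at 86.3, 87.3 and 85.7 CPM in WT and 66.1, 65.9 and 58.8 CPM in Raptor KO (-0.45 ± 0.15, adjusted p = 0.0466), and it too ended without any 1 of the 6 libraries (up to 0.176). Not every purine enzyme was lower: Impdh2 stood at 87.6, 103 and 113 CPM in WT and 86.0, 84.1 and 113 CPM in Raptor KO CD4+ cells, with log2 differences of -0.1 in CD4+ and 0.14 in CD8+ cells. Paics differed by -0.14 and -0.09. None of these 4 values was called.

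In the pyrimidine branch 2 of 7 members were lower in Raptor KO CD4+ cells and 3 of 7 in CD8+ cells. Cad stood at 267, 265 and 306 CPM in WT and 145, 139 and 191 CPM in Raptor KO CD4+ cells. The CD8+ values were 279, 234 and 296 CPM and 170.0, 186 and 200.0 CPM. The groups did not overlap, the log2 differences were -0.82 ± 0.14 (adjusted p = 3.04e-05) and -0.54 ± 0.13 (adjusted p = 0.00556), and both calls held without each single library of the groups compared. Uck2 was at 132, 119 and 144 CPM against 93.4, 83.4 and 110.0 CPM in CD4+ cells (-0.46 ± 0.15, adjusted p = 0.0329). In CD8+ cells it was at 133, 115 and 145 CPM against 84.5, 97.8 and 96.8 CPM (-0.49 ± 0.15, adjusted p = 0.0285). The Uck2 groups did not overlap either, but its call ended without any of 3 libraries in CD4+ cells (WT 3, Raptor KO 1 or 2, adjusted p up to 0.153) and of 4 in CD8+ cells (WT 1 or 3, Raptor KO 1 or 3, up to 0.14).

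Dhodh, which in stimulated CD8+ cells stood at 16.9, 23.0 and 16.4 CPM in WT, 10.9, 5.75 and 7.84 CPM in Raptor KO and 14.0, 21.8 and 19.3 CPM in Rictor KO, had the largest member difference of the CD8+ comparison. The Raptor KO libraries were all below the WT ones (-1.23 ± 0.31, adjusted p = 0.0058), and the call held without each single library. In CD4+ cells it stood at 16.2, 13.4 and 24.8 CPM in WT and 14.8, 8.96 and 13.2 CPM in Raptor KO, groups that overlap, and was not called. Umps, Ctps2 and Cmpk1 were not called in either subset by edgeR's test. Ctps had -0.36 ± 0.15 in each subset, which edgeR did not call (adjusted p = 0.0815 in CD4+ and 0.101 in CD8+ cells) and limma-voom did (0.0443 and 0.0481).

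In the deoxynucleotide branch edgeR called the reductase subunits Rrm1 and Rrm2 lower in CD4+ cells, and in CD8+ cells their calls depended on the tool. Rrm2 stood at 180.0, 198 and 192 CPM in WT and 116, 116 and 118 CPM in Raptor KO CD4+ cells, a log2 difference of -0.71 ± 0.18 (adjusted p = 0.00621), and in CD8+ cells at 168, 133 and 169 CPM and 124, 118 and 107 CPM. Rrm1 stood at 266, 271 and 279 CPM and 194, 167 and 191 CPM in CD4+ cells (-0.57 ± 0.19, adjusted p = 0.0422), and at 249, 221 and 254 CPM and 198, 182 and 176 CPM in CD8+ cells. The CD8+ difference of Rrm2 was -0.44 ± 0.18, with an adjusted p of 0.12 by edgeR, 0.0193 by DESeq2 and 0.0225 by limma-voom, and it was also called with no filter, with protein-coding genes only and with the compared groups alone. For Rrm1 it was -0.39 ± 0.19, with an adjusted p of 0.21 by edgeR, 0.0373 by DESeq2 and 0.0447 by limma-voom. In all 4 of these pairs of groups the Raptor KO libraries lay below the WT libraries. The Rrm2 call in CD4+ cells held without each single library, and the Rrm1 call ended without any 1 of the 6 (adjusted p up to 0.147) and with a replicate block (0.0659). Tyms lay on the other side, at 34.4, 48.1 and 57.0 CPM in WT and 58.7, 54.5 and 65.7 CPM in Raptor KO CD4+ cells, groups that overlap (0.33 ± 0.19, adjusted p = 0.236). Dtymk differed by 0.31 ± 0.21 in CD4+ and Nme1 by 0.42 ± 0.29 in CD8+ cells, and neither was called.

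**Figure D4:**
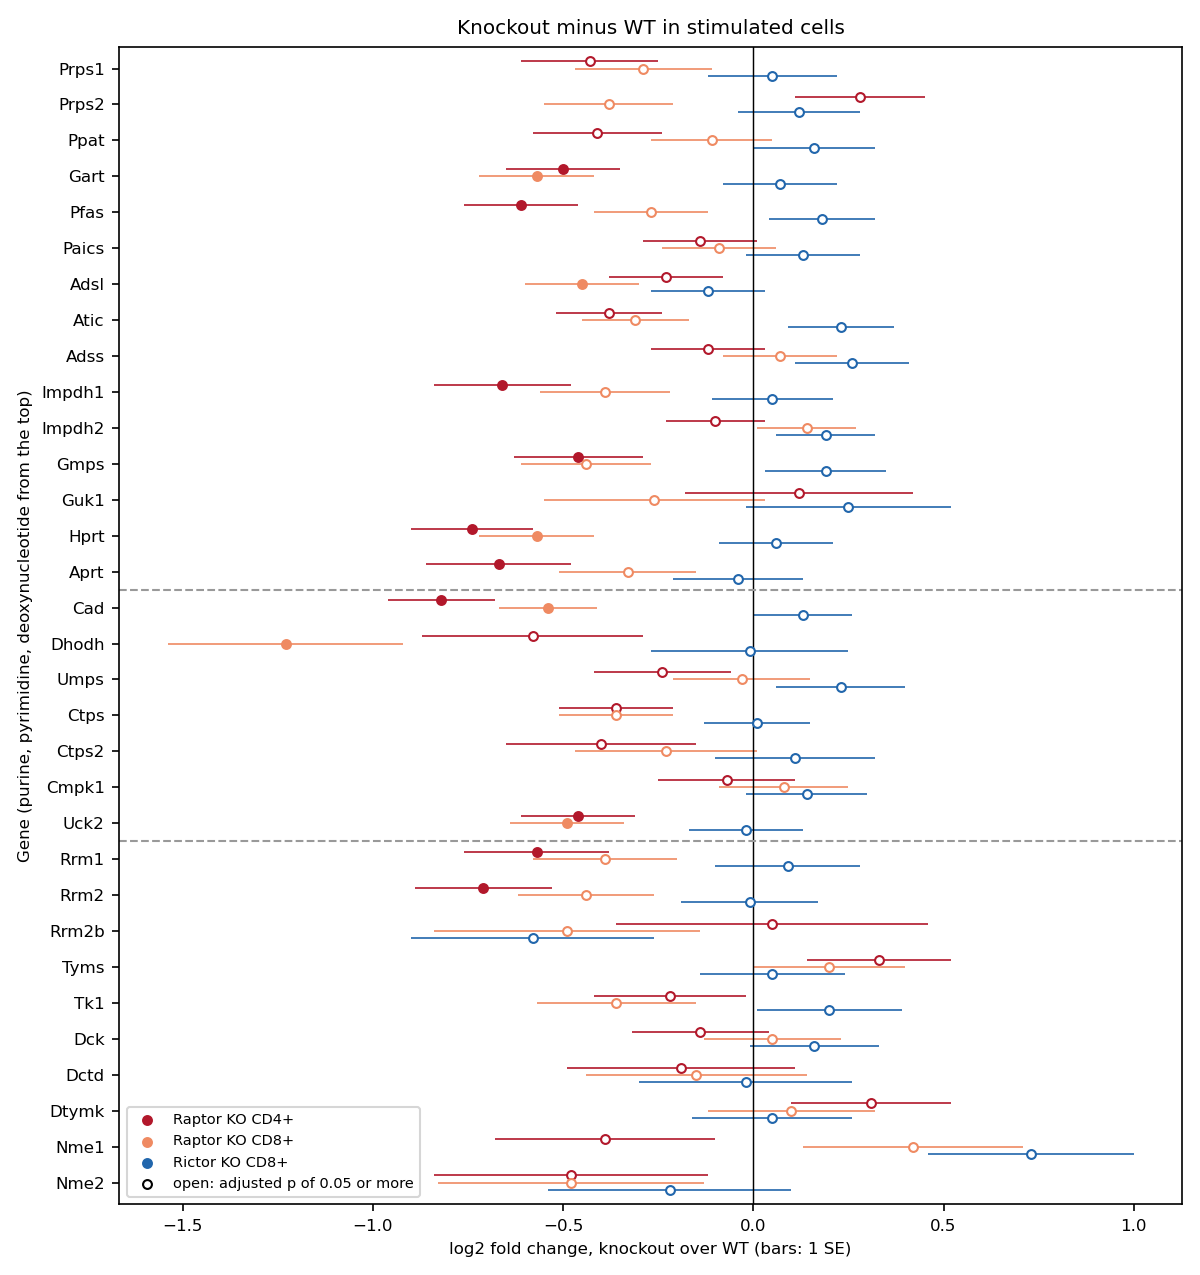
Knockout minus WT log2 difference in stimulated cells (horizontal axis) for each member (vertical axis), for Raptor KO CD4+, Raptor KO CD8+ and Rictor KO CD8+ cells, with bars of 1 SE and filled points where the adjusted p was under 0.05. The filled points are Raptor KO values left of zero, from -0.82 to -0.46 in CD4+ and from -1.23 to -0.45 in CD8+ cells, and each Rictor KO point is open.

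Sums of CPM over a branch follow its members with the highest levels most, so they are not the change of each member. In stimulated CD4+ cells the mean deoxynucleotide sum was 719.9 CPM in WT and 553.2 CPM in Raptor KO. Rrm1 (272 and 184 CPM) and Rrm2 (190 and 117 CPM) held much of it, and 3 of the 10 members had a positive log2 difference. Of the mean pyrimidine sums of 607.8 and 413.1 CPM, Cad held 279 and 158 CPM. The purine members together were 3.66-fold higher in stimulated than resting WT CD4+ cells, the pyrimidine members 4.09-fold and the deoxynucleotide members 5.92-fold, as ratios of mean summed CPM. In Raptor KO CD4+ cells the ratios were 2.85, 2.44 and 4.59. In CD8+ cells they were 3.37, 3.38 and 5.16 in WT and 2.83, 2.65 and 4.63 in Raptor KO. Stimulated Raptor KO cells had 0.776, 0.68 and 0.768 of the WT sums in CD4+ cells and 0.829, 0.745 and 0.843 in CD8+ cells. Over all 32 members the sums were 2627.3, 2607.6 and 2919.3 CPM in WT and 1992.1, 1838.3 and 2306.4 CPM in Raptor KO CD4+ cells, and 2565.2, 2414.1 and 2841.9 CPM and 2029.9, 2120.7 and 2211.2 CPM in CD8+ cells. The groups did not overlap in either subset.

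A list of 16 DNA replication genes, such as Pcna and the Mcm helicase subunits, was set beside the branches because deoxynucleotide enzymes and replication genes share the S phase. All 16 rose on stimulation in both WT subsets, where 32.4% (CD4+) and 32% (CD8+) of all tested genes did. Their summed CPM in stimulated Raptor KO cells was 0.979 of WT in CD4+ and 0.933 in CD8+ cells. By edgeR's test 0 of 16 differed in CD4+ cells, and in CD8+ cells Mcm4 alone was called (-0.55, adjusted p = 0.0115). Over all tested genes 8.82% were higher and 8.56% lower in CD4+ cells. In CD8+ cells 6.3% and 5.42% were, so the CD8+ count is near the background. Whether the members' ratio differs from that of the replication genes was not tested.

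**Figure D5:**
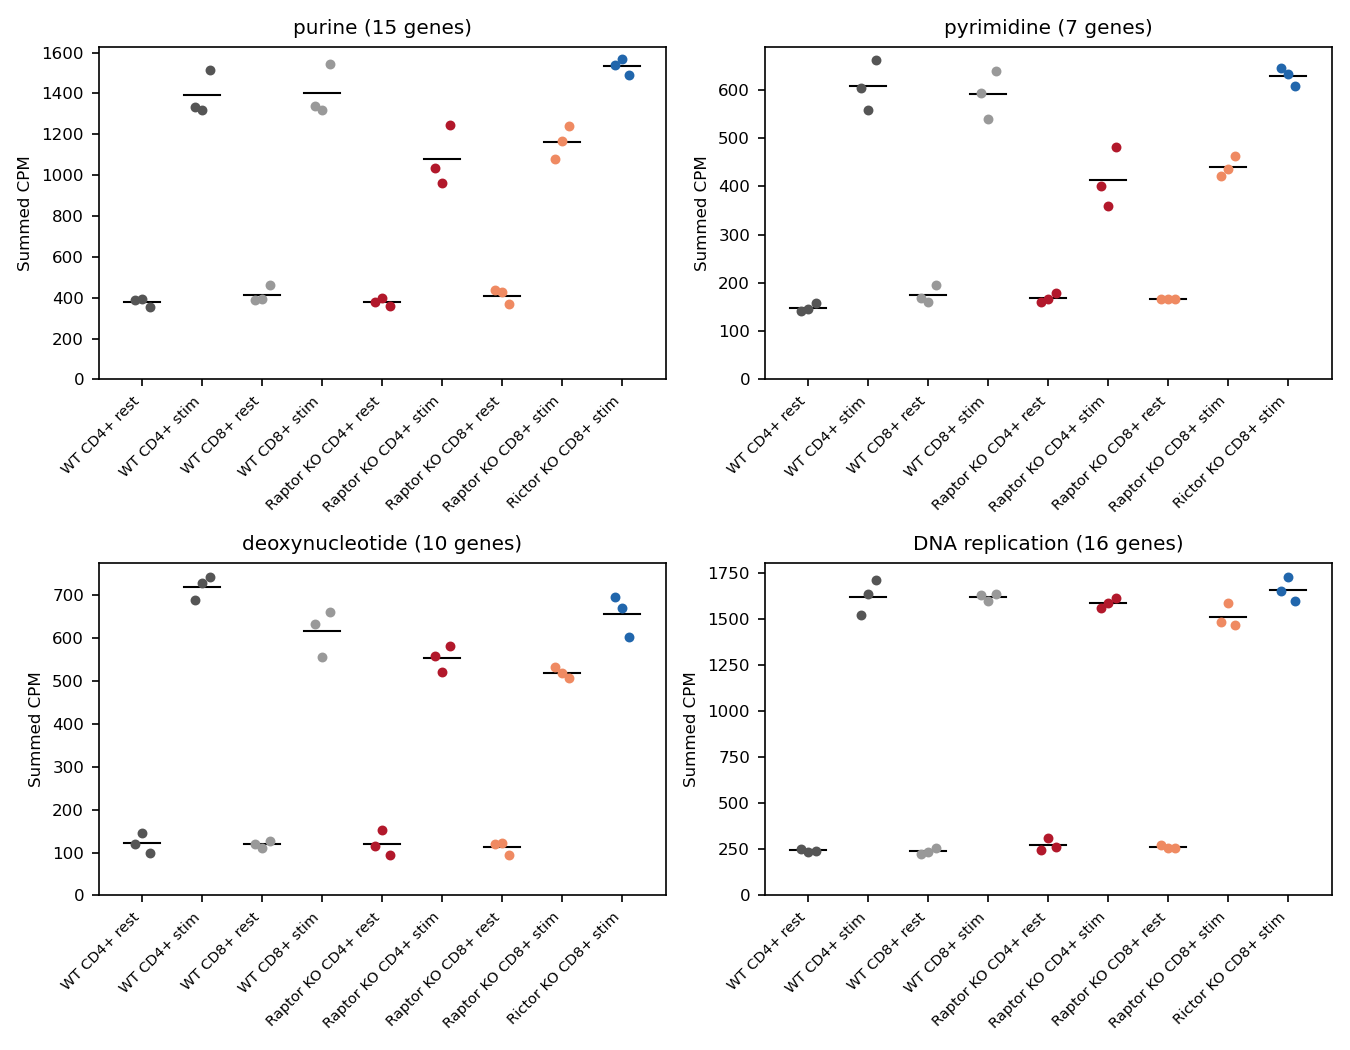
Summed CPM of the purine, pyrimidine, deoxynucleotide and DNA replication lists (4 panels, vertical axes from 0) in each group, with a point per library and a line at the mean. In the purine, pyrimidine and deoxynucleotide panels the stimulated Raptor KO points lie below the stimulated WT points of the same subset. The mean ratios are lowest for pyrimidine, at 0.68 in CD4+ and 0.745 in CD8+ cells. The replication means differ less, with ratios of 0.979 and 0.933. In that panel too the CD8+ Raptor KO points, at 1467.4 to 1591.7 CPM, lie below the WT points, at 1597.8 to 1638.7 CPM. The CD4+ points of the 2 genotypes overlap there.

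At rest no member was called between Raptor KO and WT. In resting CD4+ cells 0 of 32 passed, where 0.143% of tested genes did, and in resting CD8+ cells 0 of 32, where 1.12% did. At an unadjusted p under 0.05, 2 members were higher in CD4+ cells and 1 lower in CD8+ cells, and DESeq2 and limma-voom called 0. Cad was at 33.4, 25.8 and 30.8 CPM in WT and 40.7, 34.8 and 31.3 CPM in Raptor KO CD4+ cells, groups that overlap. The median log2 difference over the members was 0.08 in CD4+ and -0.04 in CD8+ cells. With Rn45s in the totals the members' median in CD4+ cells was -0.05 and the all-gene median shifted by -0.11. Over all genes, 10 higher and 5 lower became 8 and 2 for CD4+ cells, and 53 and 65 became 15 and 8 for CD8+ cells.

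The difference of the stimulation responses themselves was tested as an interaction. In CD4+ cells 2 of 32 members responded less in Raptor KO than in WT and 0 responded more, where 2.25% and 3.57% of tested genes were called lower and higher. Cad rose by 3.22 in WT and 2.15 in Raptor KO, a difference of -1.07 ± 0.21 (adjusted p = 0.00115), and this held without each single library. Impdh1 differed by 0.36 in WT and fell by 0.52 in Raptor KO, a difference of -0.88 ± 0.26 (adjusted p = 0.0322), and the call ended for 8 of the 12 libraries left out (up to 0.0852). The count became 1 without stimulated WT library 1 or 3 or stimulated Raptor KO library 1 or 2, and 7 without stimulated Raptor KO library 3. Aprt (-0.99, adjusted p = 0.0593), Rrm2 (-1.84, 0.0642), Rrm1 (-1.01, 0.0722) and Uck2 (-0.7, 0.0739) were next in adjusted p.

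In CD8+ cells 0 of 32 members had a called interaction, where 1.7% and 1.19% of tested genes responded more and less. At an unadjusted p under 0.05, 1 member was higher and 5 lower, and DESeq2 and limma-voom called 0. Impdh1 had -0.74 (adjusted p = 0.111), Cad -0.51 (adjusted p = 0.181) and Dhodh -1.25 (adjusted p = 0.185). Keeping Rn45s without TMM scaling shifted the all-gene interaction median by -0.39 (CD4+) and -0.47 (CD8+). Over all genes, 375 higher and 236 lower became 5 and 19 for CD4+ cells, and 178 and 125 became 6 and 33 for CD8+ cells.

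Whether the Raptor effect in stimulated cells differed between the subsets was tested in the same way. None of the 32 members was called, where 0.334% of tested genes were, with 1 lower at an unadjusted p under 0.05 and 0 called by DESeq2 or limma-voom. The longer list of calls in CD4+ cells and the Dhodh call in CD8+ cells are therefore not shown to differ between the subsets.

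WT CD4+ and CD8+ cells differed in few members. At rest Atic (0.61), Cad (0.67) and Dctd (3.01) were higher in CD8+ cells, 3 of 32 where 3.33% of tested genes were called in either direction. Atic was at 34.8, 40.7 and 43.7 CPM in CD4+ and 51.8, 55.0 and 75.0 CPM in CD8+ cells. The Dctd value stands on 2 against 16 counts, a ratio of scaled counts of 9.25 with a 95% counting interval of 2.17 to 82.9. Without resting WT CD4+ library 2 the count was 1, and without resting WT CD8+ library 3 it was 0. With Rn45s in the totals it was 0 as well, the all-gene median shifted by -0.42, and the counts over all genes went from 167 higher and 182 lower to 45 and 142. After stimulation 0 of 32 members were called, where 5.18% of tested genes were, with 1 higher and 2 lower at an unadjusted p under 0.05 and 0 by DESeq2 or limma-voom. Without stimulated WT CD4+ library 2 that count was 1, and without stimulated WT CD8+ library 3 it was 2.

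In Rictor KO CD8+ cells no member was called. Against stimulated WT CD8+ cells 0 of 32 members were called, where 0.162% of tested genes were in either direction, with a median of 0.1 against 0.0 over all genes. At an unadjusted p under 0.05 there was 1 member higher, Nme1 (0.73 ± 0.27, adjusted p = 0.513), and DESeq2 and limma-voom called 0. Cad was at 303, 304 and 278 CPM in Rictor KO and 279, 234 and 296 CPM in WT, and Hprt at 106, 108 and 111 CPM and 97.0, 105 and 110.0 CPM. Both pairs of groups overlap. All 3 Rictor KO libraries carry the library code that the other groups have on 1 library each, and what the code stands for is not given.

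Set directly against Raptor KO, stimulated Rictor KO CD8+ cells had 9 members higher and 0 lower, where 7.0% and 8.3% of tested genes were called higher and lower, with a median of 0.35 against -0.04 over all genes. At an unadjusted p under 0.05 the count lower was also 0, as with DESeq2 and limma-voom. This comparison shares its Raptor KO libraries with the one against WT, so it is given side by side and not as further support. Dhodh was higher by 1.22 ± 0.3 on the log2 scale (adjusted p = 0.00425), Cad by 0.67 ± 0.13 (adjusted p = 0.000413) and Gart, Gmps and Hprt by 0.63 each. Atic (0.54), Prps2 (0.5), Uck2 (0.47) and Pfas (0.45) were also called, and the calls of Prps2, Uck2 and Pfas each ended without any of 4, 5 and 4 of the 6 single libraries. Gmps stood at 90.1, 84.1 and 91.5 CPM in Rictor KO, 56.1, 62.2 and 53.3 CPM in Raptor KO and 63.9, 76.0 and 91.6 CPM in WT. Within the shared library code only 1 Raptor KO library is left, and it is assumed to vary like the libraries of the other groups. That fit called 3 members, Gart, Gmps and Tk1, where Tk1 is at 22.0 CPM in that library against 41.9 and 33.5 CPM in the other Raptor KO libraries. With Rn45s in the totals the all-gene median shifted by 0.45 and the counts over all genes went from 735 higher and 871 lower to 403 and 115, and 1 member was called. Median-ratio size factors gave 962 higher and 710 lower over all genes.

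The neighbouring pathways were read from lists of other genes. Of 11 tested genes of folate supply, which provides the carbons for purine and thymidylate synthesis, 9 rose and 0 fell on stimulation in WT CD4+ cells (32.4% and 32.5% of all tested genes) and 10 and 0 in CD8+ cells (32% and 30.8%). In stimulated Raptor KO cells 5 of 11 were lower and 0 higher in each subset, against 8.56% and 8.82% of all tested genes in CD4+ and 5.42% and 6.3% in CD8+ cells. Shmt2, mitochondrial serine hydroxymethyltransferase, was at 205, 206 and 243 CPM in WT and 92.9, 84.8 and 96.4 CPM in Raptor KO CD4+ cells (-1.26 ± 0.2, adjusted p = 5.39e-05). In CD8+ cells it was at 268, 282 and 324 CPM and 95.4, 109 and 96.8 CPM (-1.54 ± 0.2, adjusted p = 2.83e-06). Mthfd2, the mitochondrial enzyme that follows it, was at 115, 114 and 122 CPM against 56.4, 55.8 and 65.2 CPM in CD4+ cells (-0.98 ± 0.15, adjusted p = 1.13e-05) and 145, 144 and 168 CPM against 70.3, 67.4 and 86.6 CPM in CD8+ cells (-1.02 ± 0.15, adjusted p = 3.48e-06). Aldh1l2, a mitochondrial formyltetrahydrofolate dehydrogenase, was at 3.24, 4.9 and 2.48 CPM in WT CD4+ and 8.67, 11.8 and 9.62 CPM in WT CD8+ cells and had 0 counts in the stimulated Raptor KO libraries of both subsets, which, taking 3 counts per group as the floor, makes it at least 6.28-fold and 18.9-fold lower. The Shmt2 and Mthfd2 groups were apart by far more than the spread of their libraries. In Rictor KO cells Shmt2 was at 297, 320.0 and 305 CPM and Mthfd2 at 152, 171 and 185 CPM, and 0 of the 11 genes differed from WT.

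Of the 14 regulators, 1 was higher and 2 were lower in stimulated Raptor KO CD4+ cells and 3 and 2 in CD8+ cells. Over all tested genes 8.82% were higher and 8.56% lower in CD4+ cells and 6.3% and 5.42% in CD8+ cells, so the CD4+ counts are near the background. Atf4 stood at 271, 289 and 315 CPM in WT and 111, 151 and 112 CPM in Raptor KO CD4+ cells (-1.23 ± 0.17, adjusted p = 1.06e-06), and at 382, 356 and 367 CPM and 167, 169 and 143 CPM in CD8+ cells, where it was also lower (-1.21). Mxd1, a MAX partner that opposes MYC, was higher in Raptor KO in both subsets, by 2.1 and 1.8 on the log2 scale. Myc, whose product is known to drive many of the members, was at 224, 200.0 and 233 CPM in WT and 230.0, 247 and 297 CPM in Raptor KO CD4+ cells, which was not called (0.23 ± 0.27, adjusted p = 0.59). E2f4 was lower in CD4+ cells (-0.83) and E2f2 higher in CD8+ cells (0.66), where E2f3 (0.59) was higher and Mxi1 (-1.44), another MAX partner, lower.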

How the data were processed

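RNA was sequenced from 27 samples of cultured and sorted mouse T cells. Per the labels' protocols, ultrasound was used to fragment the RNA before a 3′ adaptor was ligated and PCR applied. The submitters' processing notes name the aligner STAR 2.6.0a and the build GRCm38. How reads were counted, with which gene models and strand setting, is not given in the sources used here. Deposited by the authors was 1 table of read counts per gene for all 27 libraries, and 26753 of its 26802 gene IDs matched the annotation.

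The members and gene lists were chosen with earlier results of these data known. Every member is named, and of the other lists, regulators and DNA replication the 2 genes with the largest called change in each direction and a mean of at least 10 CPM, besides Rptor, Rictor, Cd4, Cd8a, Cd8b1, Rn45s and Myc; Aldh1l2 in CD4+ cells, E2f3, Mxi1, Ctss, Eomes and the genes given as lying at 0 or in overlaps were named after their values were seen. A gene that this rule would name is not reported here. Rn45s was left out, genes were filtered by group (minimum count 10, minimum total 15), and edgeR 4.0.16 in R 4.3.3 was used with TMM scaling, 1 mean per group over all 27 libraries, robust quasi-likelihood F tests and Benjamini-Hochberg adjustment at 0.05 in 15 comparisons, 3 of them differences of differences. The script was tested on simulated counts. Paralog shares and sums carry no test. Counting intervals (95%) and floors (3 counts) cover counting error only.

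Libraries 1, 2 and 3 of the WT and Raptor KO groups carry the codes StP212, StP213 and StP219, and the Rictor KO libraries only StP219. The numbers were not taken to pair the samples, since each comparison had at least 1 own-number correlation of 0.1 or less. These correlations ran from -0.02 to 0.367, and most were positive. They use deviations from the group mean, which cancel out within a group. Correlations with the other numbers therefore tend to the opposite sign and give no separate information. A part shared by number or code was not removed in the main fit. Alternatives were DESeq2's size factors, testing every gene, requiring over 5 CPM in 3 or more libraries, Rn45s kept, and protein-coding genes only. The setting with Rn45s kept used whole library totals and no TMM scaling. Others were a minimum fold change of 1.5, limma-voom (limma 3.58.1), DESeq2 1.42.0 and the compared groups alone. A replicate block, 1 library code and each library left out were tried too.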

Additional observations from a re-analysis of the deposited data

Results flagged for a closer look

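Both results here are differences between genotypes in the response of CD4+ cells to stimulation, called by a test of the difference itself. They are 2 of 32 members, where 2.25% of all tested genes were called in this direction. For Cad, which starts pyrimidine synthesis, the log2 response in Raptor KO minus that in WT was -1.07 (SE 0.21, edgeR adjusted p = 0.00115). Cad rose in both genotypes, from 33.4, 25.8 and 30.8 CPM to 267, 265 and 306 CPM in WT and from 40.7, 34.8 and 31.3 CPM to 145, 139 and 191 CPM in Raptor KO. For Impdh1, an IMP dehydrogenase, the same difference was -0.88 (SE 0.26, adjusted p = 0.0322). It was read at 31.3, 31.0 and 38.0 CPM at rest and 51.2, 33.9 and 45.4 CPM after stimulation in WT, and at 40.7, 33.2 and 44.6 CPM and 25.1, 23.4 and 32.6 CPM in Raptor KO, so the means lie on opposite sides of the resting level. The Impdh1 call ended for most of the single libraries left out, and the Impdh1 response in WT was not itself called. For Cad the call held without each single library. With Rn45s kept in the totals, or against a minimum fold change of 1.5, 0 members remained called. In CD8+ cells neither difference was called.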

How the results depend on the processing

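No member call changed sign under any setting tried. The setting with Rn45s kept in the totals also left out the TMM scaling. The count of members lower in stimulated Raptor KO cells, 10 in CD4+ and 6 in CD8+ cells, was 4 and 1 with Rn45s kept in the totals, 0 and 0 against a minimum fold change of 1.5, and 5 to 10 and 2 to 5 with a library left out. The 2 members lower in the CD4+ interaction were 5 with no filter, 4 with protein-coding genes only, 1 with the compared groups alone, 0 with Rn45s kept or with the minimum fold change, and 1 to 7 with a library left out. The replicate block gave 5 for it, took the members higher on stimulation in Raptor KO CD4+ cells from 26 to 25, and changed no other count, though among the members lower in stimulated Raptor KO CD4+ cells it ended the call of Rrm1 (0.0659) and added Atic (adjusted p = 0.0394). No paired analysis was possible because all 3 libraries carry 1 code for the Rictor KO comparisons. Members higher in Rictor KO than Raptor KO, 9, were 1 with Rn45s kept, 14 with protein-coding genes only, 0 with the minimum fold change and 3 within code StP219, which leaves 1 Raptor KO library, and against WT 1 was called with no filter. Of the 3 members called between resting CD8+ and CD4+ WT cells, 0 remained with Rn45s kept or the minimum fold change, 1 with limma-voom, 1 with DESeq2 and 0 to 3 with a library left out. Between stimulated CD8+ and CD4+ WT cells 0 to 2 were called with a library left out. The stimulation count lower in WT CD8+ cells was 1 with Rn45s kept. The causes were not tested. Depth limits Dctd, Rrm2, Tyms, Nme1 and Nme2 at rest, where libraries had few counts.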

Other observations

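Enzymes that work beside the members were called in both directions on stimulation, as were all tested genes (32.4% higher and 32.5% lower in WT CD4+, 32% and 30.8% in CD8+ cells). Of 18 tested genes of purine breakdown, salvage and interconversion, 8 rose and 3 fell in WT CD4+ cells and 9 and 3 in CD8+ cells. Nt5e, the ecto-nucleotidase CD73, fell from 18.8, 31.0 and 33.9 CPM to 2.59, 0.446 and 2.2 CPM in CD4+ cells (log2 difference -3.97) and had -3.11 in CD8+ cells. Ak4, a mitochondrial adenylate kinase, was lower in stimulated Raptor KO cells, at 35.0, 38.8 and 21.2 CPM in WT and 5.7, 5.51 and 5.2 CPM in Raptor KO CD4+ cells (-2.5 ± 0.31, edgeR adjusted p = 2.7e-07) and with -2.35 in CD8+ cells. Rictor KO CD8+ cells had 26.6, 20.7 and 21.7 CPM, beside 26.4, 21.4 and 18.1 CPM in WT and 4.19, 4.7 and 3.92 CPM in Raptor KO.

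Mitochondrial deoxynucleoside kinases fell on stimulation, unlike Tk1. Tk2, mitochondrial thymidine kinase, had log2 differences of -2.46 and -2.4 in WT CD4+ and CD8+ cells, and Dguok, deoxyguanosine kinase, of -1.65 and -1.88. Dut, which removes dUTP and makes dUMP, rose by 3.65 ± 0.25 and 3.61 ± 0.26. Among 6 tested genes of pyrimidine breakdown and salvage, Uckl1 fell by 2.03 in CD4+ cells and was higher in stimulated Raptor KO than WT CD4+ cells (1.25 ± 0.3, adjusted p = 0.0028). Of the 4 tested nucleoside transporters, Slc29a1, an equilibrative carrier, rose by 2.73 ± 0.23 and 2.61 ± 0.24, and Slc28a2, a concentrative carrier of purine nucleosides, fell from 63.3, 53.6 and 50.3 CPM to 5.19, 5.79 and 6.6 CPM in CD4+ cells.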
